A study of Homo sapiens with 2 samples.

Results

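The BCL2 family decides whether mitochondria release the proteins that start caspase cleavage. Its members fall into 3 roles: anti-apoptotic proteins that hold the others in check, the effectors BAX and BAK that permeabilise the outer mitochondrial membrane, and BH3-only proteins that carry stress signals to both. One BH3-only protein, BMF, is bound to the cytoskeleton in attached cells and is known for its part in anoikis, the death of cells that lose their attachment. The genes described here are 10 members named by symbol: the anti-apoptotic BCL2A1, BCL2L1 (BCL-XL), MCL1 and BCL2, the BH3-only BMF, PMAIP1 (NOXA), BIK and BCL2L11 (BIM), and the effectors BAX and BAK1. All 10 were among the 23686 gene symbols measured. They were chosen by name, by their place in the family, with earlier results of these data known.

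The cells were A427, an established line of human non-small cell lung carcinoma that grows attached and as floating spheres. The series title calls it CTNNB1-mutated, whereas the sample labels give the genotype as wild type. Both groups were the same line in RPMI 1640 with 5% fetal bovine serum and differed in growth form: an adherent group and a floating, sphere-forming group, collected separately, with 1 poly(A) RNA library each. The question was which genes differ between these growth forms. The adherent library held 26384670 reads assigned to genes and the floating library 27148842. There was no replicate, so no test was made. Each ratio compares 2 libraries, with a 95% exact interval that covers counting error only and not the spread between cultures.

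Of all genes, 13131 reached 1 CPM (a scaled count per 1000000 reads) in at least 1 library and were compared, among them all 10 members. The median log2 ratio of floating over adherent over these genes was -0.0048. Of 5 epithelial marker genes, EPCAM, KRT8, KRT18 and CDH1 were expressed in both libraries and KRT19 was nearly absent, with 8 and 22 reads. KRT8 and KRT18 were 1.83-fold and 1.84-fold higher in the floating library, whereas CDH1 was 1.31-fold lower (interval 1.20 to 1.43) and EPCAM 1.03-fold lower. Of 4 mesenchymal markers, VIM was at 5264 and 4850 TPM (transcripts per 1000000, a level corrected for length), 1.05-fold lower in the floating library. COL1A1 was 1.69-fold lower (interval 1.52 to 1.87), CDH2 1.45-fold lower (interval 1.12 to 1.88), and COL1A2 had 2 reads in each library. Among 4 leukocyte markers CD3E and LYZ had 0 reads in both libraries. Among 3 endothelial markers CDH5 had 0 reads in both, PECAM1 had 0 and 2, and VWF had 14 and 44, which made it 2.97-fold higher (interval 1.634 to 6.002). VWF passed the filter only through the floating library, where it was higher, at 0.532 CPM (adherent) and 1.62 CPM (floating). The part of these marker differences in the members' values was not tested.

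Anti-apoptotic genes were mostly higher in the floating library, while BH3-only genes were split. Of the 10 members, BCL2A1 was at least 2-fold higher and BMF at least 2-fold lower, with counting intervals that excluded no difference. By the same rule 1.28% of all genes compared were higher and 0.754% lower. Counting intervals lay above 0 for 7 members and below 0 for 1, and those of BCL2 and BCL2L11 included 0. Among all genes compared 25.5% of intervals lay above 0 and 25.6% below. The median log2 ratio was 0.47 for the 4 anti-apoptotic members, 0.42 for the 4 BH3-only members and 0.17 for the 2 effectors. For BH3-only genes the median hides opposite directions, since their ratios ran from -1.81 to 0.90. In bulk RNA, fewer cells expressing a gene and less RNA per cell cannot be told apart.

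**Figure D1:**
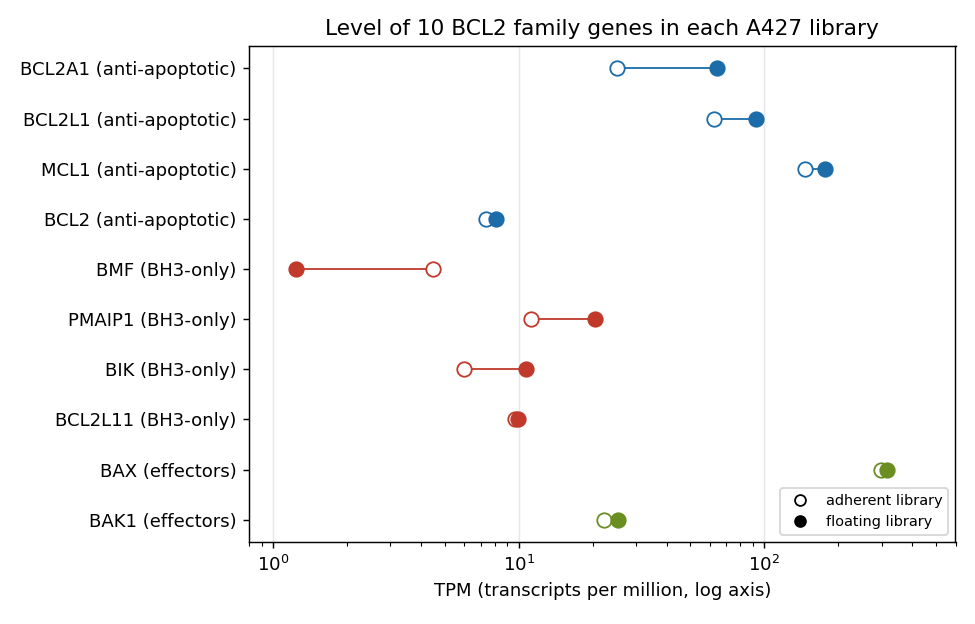
Level of each of the 10 genes in TPM on a log axis, with an open circle for the adherent and a filled circle for the floating library (1 library each). BMF is the member farthest to the left in the floating library, at 1.24 TPM, and BCL2A1 has the longest line to the right, from 25.1 to 64.1 TPM.

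**Figure D2:**
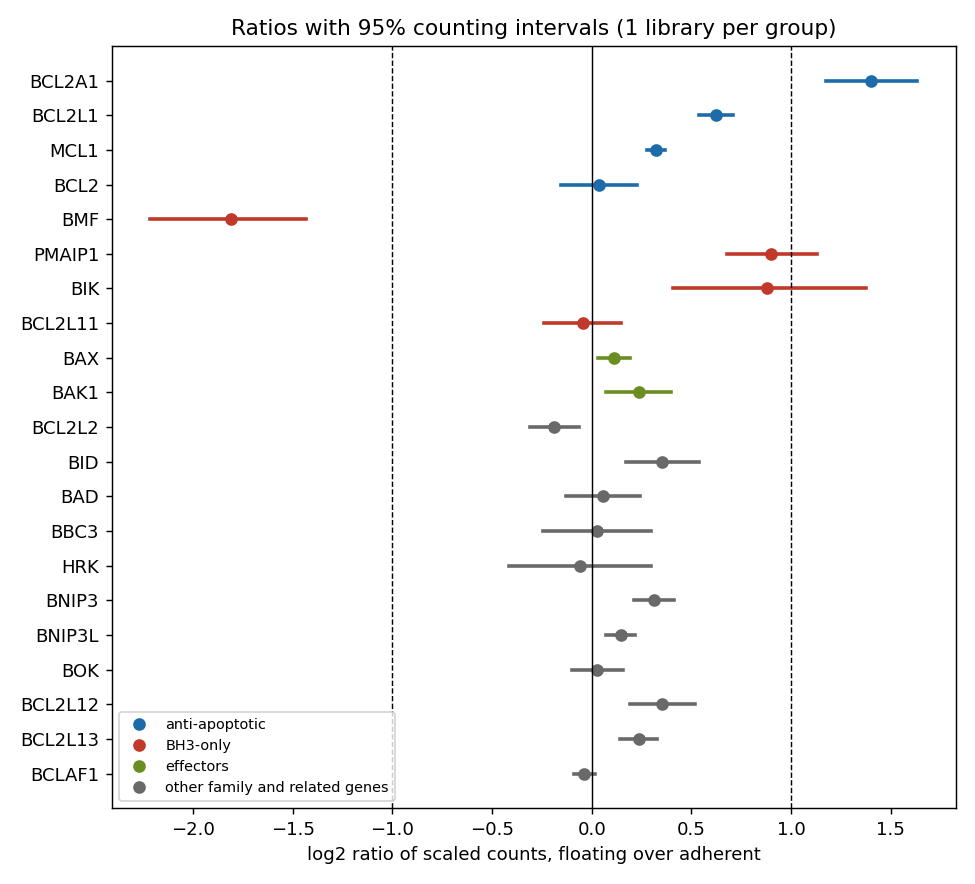
Log2 ratio of scaled counts, floating over adherent, with bars for the 95% counting interval. Solid and dashed lines mark no difference and 2-fold. Among these genes only the intervals of BCL2A1 and BMF lie wholly beyond the dashed lines, at 1.18 to 1.63 and -2.22 to -1.43.

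BMF encodes a BH3-only protein that dynein light chain 2 tethers to myosin V motors. It had 245 reads, or 4.50 TPM, in the adherent library and 72 reads, or 1.24 TPM, in the floating one. The floating library was thus lower, by 3.50-fold (interval 2.70 to 4.65). Only 15 of the 13131 genes compared had a lower ratio. BMF was a low-level transcript in both libraries, at position 11184 by TPM in the adherent and 12617 in the floating library.

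BCL2A1 encodes an anti-apoptotic protein best known from blood cells, where NF-kB induces it. Its estimated count was 219.18 in the adherent and 598.78 in the floating library, and its level 25.1 and 64.1 TPM. The ratio was 2.64-fold higher in the floating library (interval 2.26 to 3.10), and 82 genes had a higher one. The decimals show that some reads were shared with other sequence in the authors' estimate, which was not so for the other 9 members. The leukocyte markers PTPRC and CD68 moved in opposite directions, with 159 and 121 reads for PTPRC and 350 and 693 for CD68. Over all 4 leukocyte markers the summed level was 19.72 TPM in the adherent and 33.41 TPM in the floating library. Most of this sum was CD68, at 16.88 and 31.46 TPM, whereas PTPRC was at 2.84 and 1.95 TPM. CD3E and LYZ had no reads, and the part of other cells in the BCL2A1 difference was not tested.

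The promoters of the genes at the ends of the range are given as the sequence context of the measured transcripts, with BCL2L11 added as the other BH3-only gene known for detachment. Each window runs from 250 bases before to 50 after a RefSeq transcription start on GRCh38.p14, a build other than the hg19 of the authors' tables, and is written 5′ to 3′ on the gene's strand. A window was found for 8 of the 10 members. MCL1 and BIK had none. Capitals mark matches on either strand to 9 short motifs, and no matches overlapped.
BMF, chr15:40108830-40109129, minus strand: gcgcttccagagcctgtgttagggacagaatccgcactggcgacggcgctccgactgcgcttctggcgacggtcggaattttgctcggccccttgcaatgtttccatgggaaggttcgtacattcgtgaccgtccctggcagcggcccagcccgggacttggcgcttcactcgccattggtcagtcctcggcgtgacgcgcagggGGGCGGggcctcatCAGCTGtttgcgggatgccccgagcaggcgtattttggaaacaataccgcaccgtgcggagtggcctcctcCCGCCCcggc
BCL2A1, chr15:79971147-79971446, minus strand: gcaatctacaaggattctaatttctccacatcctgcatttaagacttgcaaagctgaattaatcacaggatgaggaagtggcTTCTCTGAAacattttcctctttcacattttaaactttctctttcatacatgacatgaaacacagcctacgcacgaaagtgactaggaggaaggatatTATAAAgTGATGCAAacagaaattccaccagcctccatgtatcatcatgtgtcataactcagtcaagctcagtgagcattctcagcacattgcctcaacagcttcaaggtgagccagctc
BCL2L11, chr2:111120664-111120963, plus strand: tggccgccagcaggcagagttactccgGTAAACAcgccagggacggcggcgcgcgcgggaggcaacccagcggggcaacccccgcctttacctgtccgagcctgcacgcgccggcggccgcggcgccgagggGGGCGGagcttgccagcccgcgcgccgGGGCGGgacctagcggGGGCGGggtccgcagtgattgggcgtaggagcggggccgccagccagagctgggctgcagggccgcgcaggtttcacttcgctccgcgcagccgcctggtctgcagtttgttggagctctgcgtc

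The BMF and BCL2A1 windows differed in composition. The BMF window held 65.0% G and C and 31 CpG sites, the BCL2A1 window 41.0% and 2, and the BCL2L11 window 74.7% and 39. Over all 35116 windows of the table the medians were 58.7% and 14 CpG sites. A second RefSeq start of BMF, chr15:40106917-40107216, had a window with 50.3% G and C and 1 CpG site, and none of the 9 motifs.

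In the BMF window the capitals are GC boxes (GGGCGG, in 45.0% of all windows), beginning 45 bases before and, on the other strand, 41 bases after the start, and an E-box (CAGCTG, 17.9%) beginning 31 bases before it. In BCL2A1 they are TATAAA (11.5%), beginning 70 bases before the start, a CEBP-ATF type motif (TGATGNAA, 3.62%) at 63 bases, and a STAT type motif (TTCNNNGAA, 7.66%) at 168 bases. BCL2L11 held 3 GC boxes and a forkhead motif (GTAAACA, 3.42%) that began 223 bases before the start. BAX held 4 copies of the E-box CACGTG, which 7.26% of windows have. An AP-1 motif (TGANTCA, 7.71%) and an NF-kB type motif (GGNNTTTCC, 6.26%) were not in any member's window. With shares this low in all windows, their absence from 10 short windows carries little information. These are letter matches, and whether a factor binds there was not measured.

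BCL2L1 and MCL1 carried most of the anti-apoptotic transcripts. BCL2L1, whose main product BCL-XL guards mitochondria, had 1838 reads (62.2 TPM) in the adherent and 2928 reads (92.8 TPM) in the floating library. It was 1.54-fold higher (interval 1.45 to 1.63), and 3.13% of genes compared had a higher ratio. MCL1, a short-lived protein that is rapidly turned over, had 6994 and 9055 reads, at 146 and 177 TPM. It was 1.25-fold higher in the floating library (interval 1.21 to 1.29), with 10.55% of genes above it. BCL2 itself, the founding member, was the least abundant of the 4, with 447 and 474 reads and 7.37 and 8.12 TPM. Its log2 ratio of 0.04 had an interval from -0.15 to 0.23, so a difference was not detectable at this depth.

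Of the other BH3-only genes, PMAIP1 and BIK were higher in the floating library and BCL2L11 was level. PMAIP1 encodes NOXA, a stress-inducible protein that binds MCL1 preferentially. Its 245 reads in the adherent library equalled those of BMF, and its 474 reads in the floating library gave a 1.87-fold higher ratio (interval 1.60 to 2.19). In TPM it went from 11.3 to 20.4. BIK, a BH3-only protein of the endoplasmic reticulum, had 56 and 107 reads, or 5.98 and 10.7 TPM, and was 1.84-fold higher (interval 1.33 to 2.60). The counting intervals of both genes included 2-fold. BCL2L11 encodes BIM, which binds all anti-apoptotic members. With 450 and 451 reads its log2 ratio was -0.05 (interval -0.24 to 0.15), and on TPM, at 9.64 and 9.97, the sign was the opposite.

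The effectors differed little. BAX, a cytosolic protein that moves to mitochondria, was the most abundant of the 10, at 299 and 315 TPM with 2330 and 2603 reads, and 1.08-fold higher in the floating library (interval 1.02 to 1.14). BAK1, whose protein resides in the outer mitochondrial membrane, was at 22.3 and 25.4 TPM with 556 and 677 reads, and 1.18-fold higher (interval 1.05 to 1.32).

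**Figure D3:**
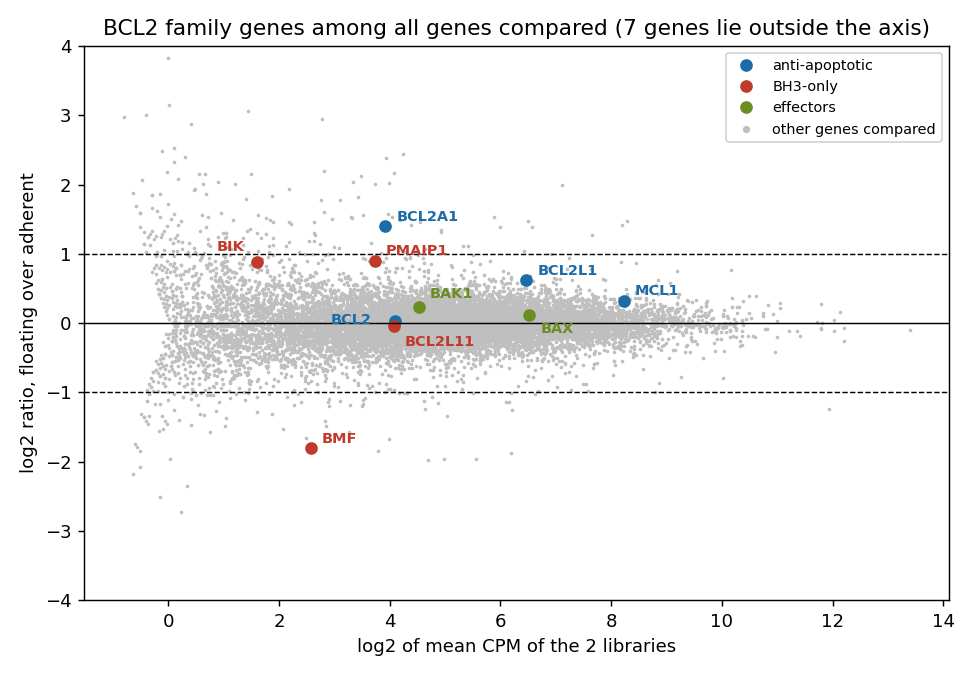
Log2 ratio, floating over adherent, against the log2 of the mean CPM for the 13131 genes compared, with the 10 members in colour by role and dashed lines at 2-fold. BMF (-1.81) and BCL2A1 (1.40) lie outside the dashed lines, and BCL2 and BCL2L11 lie near 0.

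Ordered by TPM, BAX, MCL1, BCL2L1, BCL2A1, BAK1 and PMAIP1 took the first 6 places in both libraries. BCL2A1 (21.9 to 28.7 TPM) and BAK1 (20.5 to 24.2 TPM) had overlapping exact Poisson intervals in the adherent library. In the floating library they lay apart, at 59.1 to 69.5 TPM for BCL2A1 and 23.5 to 27.4 TPM for BAK1. BMF was last in both. In the adherent library its interval (3.95 to 5.10 TPM) overlapped that of BIK (4.52 to 7.77 TPM), and in the floating library (0.970 to 1.56 TPM) it lay below all others.

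The balance of roles was summed in TPM. Anti-apoptotic members summed to 240.51 TPM in the adherent and 341.9 TPM in the floating library, BH3-only members to 31.39 and 42.4 TPM, and effectors to 321.32 and 340.87 TPM. BH3-only transcripts were thus 0.131 and 0.124 per anti-apoptotic transcript, lower in the floating library. Without BMF the order in TPM was the opposite, at 0.112 and 0.120. Both differences are small and are given without an interval. On summed reads, which weight abundant and long genes, anti-apoptotic members were 1.33-fold higher (interval 1.29 to 1.36), while the BH3-only sum had an interval of 0.983-fold to 1.17-fold. Without BMF the BH3-only sum was 1.33-fold higher (interval 1.21 to 1.46). That is the same fold as for the anti-apoptotic sum, so the opposite order was not seen on reads. Effector transcripts per anti-apoptotic transcript were 1.34 in the adherent and 0.997 in the floating library.

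Composition moved inside both roles. BMF made up 14.3% of BH3-only TPM in the adherent and 2.93% in the floating library, and PMAIP1 35.9% and 48.2%. BIK was at 19.1% and 25.3%, and BCL2L11 at 30.7% and 23.5%. On the anti-apoptotic side BCL2A1 went from 10.4% to 18.8%, MCL1 from 60.6% to 51.7% and BCL2L1 from 25.9% to 27.2%. BCL2 was at most 3.06%.

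**Figure D4:**
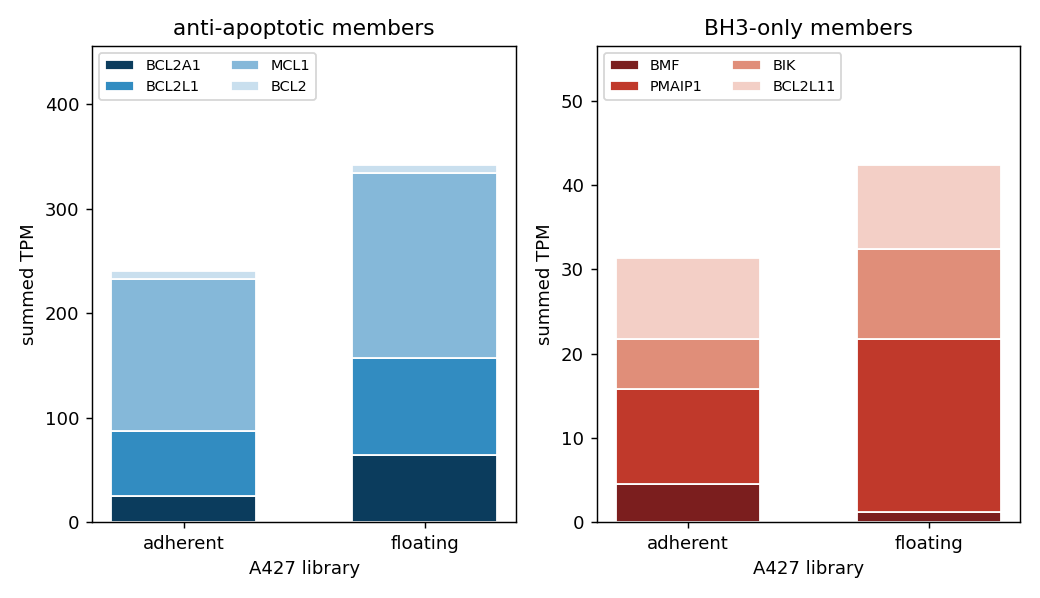
Summed TPM of the 4 anti-apoptotic (left) and the 4 BH3-only members (right) in each library, stacked by gene, with separate linear axes from 0. The BCL2A1 block grows from 25.1 to 64.1 TPM, and the BMF block shrinks from 4.50 to 1.24 TPM.

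Each BH3-only gene was also set against each anti-apoptotic gene, a quotient of reads in which library scaling cancels. Of the 16 pairs, the quotient of BH3-only to anti-apoptotic reads was higher in the floating library for 5, lower for 9 and had an interval that included no change for 2. All 4 pairs with BMF were lower, from 3.61-fold against BCL2 (interval 2.69 to 4.84) to 9.31-fold against BCL2A1 (interval 6.86 to 12.6). In TPM, BCL2A1 transcripts per BMF transcript numbered 5.58 in the adherent and 51.7 in the floating library. PMAIP1 went the other way against its preferred partner MCL1, with a quotient 1.49-fold higher (interval 1.28 to 1.75), and against BCL2A1 it was 1.41-fold lower (interval 1.14 to 1.76). BCL2L11 was lower against BCL2A1 (2.73-fold, interval 2.23 to 3.34), BCL2L1 (1.59-fold) and MCL1 (1.29-fold), but not beyond counting error against BCL2. The interval for BIK against BCL2A1, 1.43-fold lower, only just excluded no change (log2 bound -0.0004). Every pair that held BMF or BCL2A1, the members past the 2-fold rule, was lower. The 5 higher pairs were PMAIP1 against BCL2L1, MCL1 and BCL2, and BIK against MCL1 and BCL2. Without BMF and BCL2A1, more pairs were thus higher than lower. The 16 pairs share genes and are not independent, and the share among other gene pairs was not computed.

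A quantity other than the level set BCL2 and BCL2L11 apart. Reads divided by TPM follow the effective transcript length that the authors' isoform estimates imply, and this quotient, relative to the median gene, should be equal in the libraries if the isoform mix is. From adherent to floating it changed by -9.79% for BCL2 and by -9.17% for BCL2L11. Only 37 and 40 of the 12635 genes with at least 1 TPM in both libraries had a lower change. The middle 90% of genes lay between -1.13% and 0.795%, and the other 8 members between -0.731% and 0.237%. Lower values were also found for FBXW7 (-5.66%), CFLAR (-5.43%), CASP8 (-3.31%) and APAF1 (-2.28%). The tables give no value per isoform and no error for this quotient, and BCL2 and BCL2L11 rest on at most 474 reads per library.

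**Figure D5:**
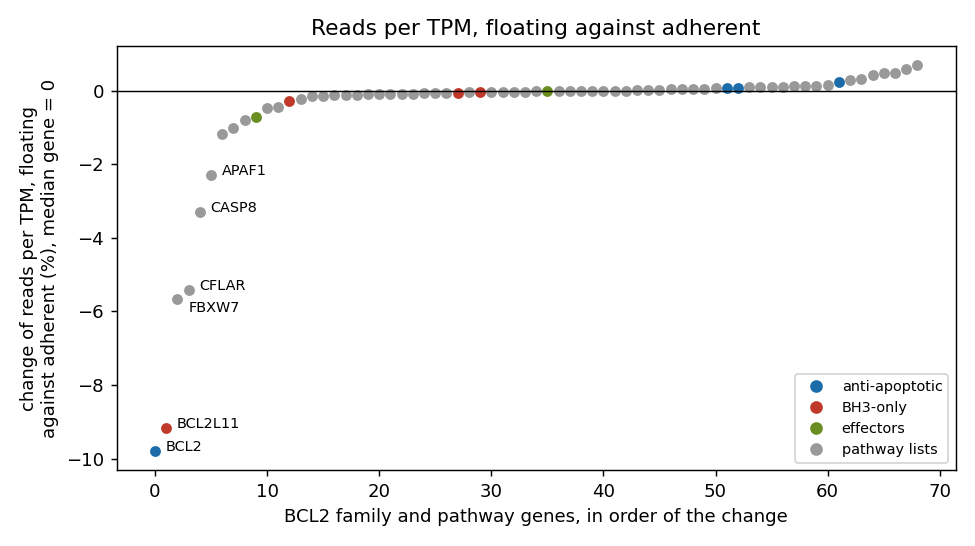
Change of reads per TPM from adherent to floating in percent, relative to the median gene, for members (coloured by role) and genes of the pathway lists (grey), in ascending order. BCL2 (-9.79%) and BCL2L11 (-9.17%) stand at the low end, and most genes lie near 0.

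Of the family genes outside the 10 that were compared, none passed the 2-fold rule. Some, such as BID, differed more than the members BAX, BAK1, BCL2 and BCL2L11. BCL2L2 (BCL-W), another anti-apoptotic gene, had 1118 and 1016 reads and was 1.14-fold lower in the floating library (interval 1.05 to 1.24). Its estimate has decimals and its locus overlaps the read-through gene BCL2L2-PABPN1 on the same strand and HOMEZ and PPP1R3E on the other, so its value is uncertain. BCL2L10 had 0 reads in both, and at this depth a count of 0 allows up to 0.114 CPM (adherent) or 0.1102 CPM (floating). Among 4 further BH3-only genes only BID, which caspase-8 cleaves, had an interval off 0, at 1.28-fold higher (interval 1.13 to 1.45). The intervals of BAD, BBC3 (PUMA) and HRK included 0, with log2 ratios of 0.06, 0.03 and -0.06. With these genes added, 3 of 8 BH3-only genes had intervals above 0 and 1 below, with a median log2 ratio of 0.04. With BCL2L2 added, 3 of 5 anti-apoptotic genes compared had intervals above 0 and 1 below, with a median of 0.32. Over all genes compared 25.5% of intervals lay above 0 and 25.6% below.

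Both BNIP3 genes, which act in mitophagy, were slightly higher, BNIP3 by 1.24-fold and BNIP3L by 1.11-fold. Of 6 other BCL2-like or associated genes, BCL2L12 (1.28-fold) and BCL2L13 (1.18-fold) had intervals above 0, and BOK and BCLAF1 had intervals that included it. BCL2L14 had 0 reads in both libraries and BCL2L15 6 and 13, under the filter.

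Downstream of the mitochondria, most caspase activation genes were level. Of 10 genes 8 had intervals that included 0 and the median log2 ratio was 0.01. Among all 13131 genes compared 6426 intervals included 0, and genes with fewer reads have wider intervals. CYCS, the gene for cytochrome c, was 1.56-fold higher in the floating library (71.3 and 107 TPM), and APAF1, which builds the apoptosome, 1.19-fold lower (interval 1.11 to 1.28). ENDOG and HTRA2 had log2 ratios of -0.18 and 0.12, with intervals that included 0. None passed the 2-fold rule.

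Inhibitor of apoptosis genes went both ways. Of 6 compared, BIRC5 (survivin, 1.27-fold) and BIRC3 (1.03-fold) were higher. NAIP (1.42-fold), BIRC2 (1.14-fold), XIAP (1.07-fold) and BIRC6 (1.04-fold) were lower. Over all genes compared 25.5% of intervals lay above 0 and 25.6% below. Many reads make intervals narrow, so small ratios are off 0 for BIRC3 (34318 and 36649 reads) and BIRC6 (8902 and 8875 reads). The seventh gene of that list, BIRC7, had 1 and 0 reads. In the link from death receptors to BID, CASP10 was 2.67-fold higher with 16 and 45 reads (interval 1.51 to 5.15), FADD was 1.12-fold higher, and CASP8 and CFLAR had intervals that included 0. CASP10 passed the filter only through the floating library, where it was higher, at 0.608 CPM (adherent) and 1.65 CPM (floating).

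Genes of anchors and other listed partners of the proteins differed by small ratios, and more were higher than lower in the floating library. DYNLL2, the light chain that binds BMF, had 1348 and 1499 reads and a log2 ratio of 0.10 (interval -0.003 to 0.21). DYNLL1, which binds BIM, was 1.24-fold higher (interval 1.20 to 1.29). Of the 8 anchor genes, 14-3-3 genes that bind BAD included, 4 had intervals above 0 and 1 below, YWHAZ at 1.06-fold lower, and YWHAQ was 1.04-fold higher. Over all genes compared 25.5% of intervals lay above 0 and 25.6% below. Genes with many reads have narrow intervals: YWHAE, with 11781 and 12580 reads, was off 0 at 1.03-fold higher. Among 5 genes listed as partners of BAX and BAK, MTCH2 (1.19-fold), VDAC1 (1.15-fold), VDAC2 (1.14-fold) and VDAC3 (1.07-fold) were higher and TMBIM6 was 1.15-fold lower.

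Of 5 MCL1 turnover genes, USP9X, a deubiquitinase that stabilises MCL1, was 1.26-fold lower (interval 1.23 to 1.29), and the ligase gene HUWE1 1.03-fold lower. CDK9, FBXW7 and BTRC had log2 ratios of -0.09, 0.07 and -0.05, with intervals that included 0.

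Among transcription factors known to act on these promoters, 7 of 11 genes had intervals below 0 and 3 above, with a median log2 ratio of -0.12. Over all genes compared the shares were 25.6% below and 25.5% above, and genes with more reads have narrower intervals. DDIT3 (CHOP) was 1.44-fold higher (interval 1.37 to 1.52). The forkhead factors FOXO1, which can activate BCL2L11, and FOXO4 were 1.36-fold (interval 1.18 to 1.57) and 1.29-fold lower, and the cell cycle factor E2F1 was 1.26-fold lower. ATF4 and STAT3 were the other 2 higher genes, at 1.22-fold and 1.25-fold. The NF-kB genes RELA and NFKB1 were 1.09-fold and 1.06-fold lower, while the interval of REL included 0. TP73 (1.25-fold, interval 1.15 to 1.38) and FOXO3 (1.09-fold, interval 1.01 to 1.18) were the remaining lower genes. These are RNA levels and do not measure the activity of a factor.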

How the data were processed

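Poly(A) RNA of adherent and of floating A427 cells was sequenced, 1 library each. The submitters' processing notes name hg19 and, as tools, RSEM 1.3.3, STAR 2.5.3a and FastQC 0.11.1, but not the annotation, the settings or the use of strand. The authors deposited unnormalized estimated counts per gene symbol and TPM, which they scaled to 1000000 per library.

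Here, estimated counts were rounded and scaled by TMM in edgeR 4.0.16 (R 4.3.3), and 0.5 was added before log2 ratios were taken. The filter was 1 CPM in either library. A ratio's interval is the exact Clopper-Pearson interval (95%) given the summed reads, and that of a pair of genes a normal approximation to the log odds ratio. A call needs 2-fold and an interval off 0. A count of 0 was given a limit of 3 reads. Reads are not independent molecules. Without replicates no count test was run. The calculation was checked on simulated data.

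The members and lists were chosen with earlier results of these data known, and some listed genes are not reported here. Named were all members, list genes past 2-fold and up to 4 genes per list with the largest ratios. Other list genes (BIRC3, BIRC6, VDAC3, YWHAE, HUWE1, ATF4, STAT3, TP73, FOXO3, RELA, NFKB1, REL), the motifs and the quotient of reads per TPM were picked with values in view. Promoters came from RefSeq, and overlaps from GENCODE release 29, which places BMF-AS1, MIR4435-2HG and ABALON opposite BMF, BCL2L11 and BCL2L1. Without known strand use their reads cannot be told apart. Ratios were also computed with scaling by upper quartile, by library totals and by DESeq2 1.42.0, and with log2 of TPM + 0.1, a prior count of 5, other filters and other thresholds. Python 3.11.15 with numpy 2.4.6, scipy 1.17.1, pandas 2.3.3 and matplotlib 3.10.9 did the rest.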

Additional observations from a re-analysis of the deposited data

How the results depend on the processing

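Under 4 other measures of the ratio (DESeq2 size factors, library totals, upper quartile, TPM) and a prior count of 5, BCL2A1 stayed the 1 member at least 2-fold higher and BMF the 1 lower. BCL2A1 ranged from 1.3496 to 1.41 (log2) and BMF from -1.82 to -1.75. With a 1.5-fold threshold 4 members were higher (BCL2A1, BCL2L1, PMAIP1 and BIK), and with a 4-fold threshold 0 were higher and 0 lower. The shares of all genes at these 2 thresholds were not computed, so whether these counts are unusual is not known. With only whole-number estimates BCL2A1 is left out, so 0 members were higher and the anti-apoptotic median was 0.32. With at least 5 CPM BIK is left out and the BH3-only median was -0.0458. The quotient of BH3-only to anti-apoptotic levels was 0.105 and 0.0846 (adherent, floating) on CPM, which is not per length, and 0.441 and 0.364 with all 8 BH3-only and all 6 anti-apoptotic genes in TPM. In both it was lower in the floating library, whereas without BMF it was higher in TPM (0.112 and 0.120). Of 78 values of single members under these settings 77 lay inside the main counting interval. The exception was MCL1 on TPM, at 0.28. Settings that change only the filter leave each ratio as it was. Other scalings of the counts shift all genes by the same small amount. The count of 77 was therefore largely fixed in advance and is no test of the ratios. Only BCL2L11 changed sign, on TPM, at 0.05. No scaling moved the median of all genes by more than 0.0425. With 1 library per group, the spread between cultures is not measured, and reads limit BIK and BMF most. No paired analysis was possible because each group has 1 library and no result comes from a test.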
